A study of Xenopus laevis x Xenopus muelleri with 6 samples.

Results

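Genes of meiosis, chromosome cohesion and DNA repair were followed in testes of sexually mature hybrid frogs. They were chosen by gene symbol alone. A probe set was taken if the platform table gave it exactly 1 symbol and that symbol, without its .L or .S ending, belonged to a set of names for synaptonemal complex, cohesin, recombination, repair and DNA polymerase genes. This gave 60 of 11485 probe sets, which carry 50 of 5790 symbols and stand for 46 genes once L and S copies are joined. The endings name the copy, since X. laevis has 2 sets of chromosomes of different ancestry, L and S.

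All animals were hybrids of a laevis mother (Cape of South Africa) and a muelleri father (Swaziland), raised from eggs to adulthood. RNA from 3 testes of sex-reversed animals and 3 testes of normal animals was measured on 6 Affymetrix arrays, 1 sample each, labelled as biological replicates. The labels do not say how sex was reversed, which genetic sex the animals had, or whether samples came from separate animals, so a p-value here covers no more than the spread among the samples. Values are log2 expression, and differences are sex-reversed minus normal, so 1 unit is a 2-fold difference. A level of 1 probe set cannot be set against that of another, because probes differ in how brightly they bind. In whole testis, fewer cells of a type and less RNA per cell cannot be told apart.

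In meiosis, sister chromatids are held together by cohesin, homologous chromosomes are aligned by the synaptonemal complex, and programmed DNA breaks are repaired by recombination with the homologue. Spermatogonia copy their DNA before they enter meiosis, so a testis also uses the replication clamp, the replicative polymerases and the ligases. Base excision repair removes damaged bases, nucleotide excision repair removes bulky lesions, and end joining rejoins broken ends without a template.

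The 6 arrays had medians of 5.25 to 5.31 and correlated at 0.939 to 0.959 with each other across probe sets. Levels of germ cell markers were read as a description. They cannot test the tissue label, since all 6 arrays were of testis and no other tissue was measured for comparison. The germ cell RNA helicase gene ddx4.L lay at 12.36 to 12.56 in sex-reversed testes and 12.35 to 12.75 in normal testes. The germ cell RNA-binding protein gene dazl.L lay at 11.9 in each of the sex-reversed testes and 11.7 to 12.1 in normal testes. Of sperm tail genes, the tektin gene tekt1.L averaged 10.03 ± 0.04 in sex-reversed testes and 10.46 ± 0.25 in normal testes (SD, n = 3 each), and the axoneme gene spag6.L at 8.93 to 9.16 in sex-reversed testes and 8.08 to 8.72 in normal testes. The outer dense fibre genes odf3.L and odf3.S lay at 2.49 to 3.31 in sex-reversed testes and 2.42 to 3.91 in normal testes, where the lowest value of an array was 1.93 to 2.09. Of the 15 germ cell probe sets, 6 lay below the 25th percentile of mean level. These were odf3.L, odf3.S, meig1.S, ropn1l.L, sp5.S and the dimmer probe set of septin12.S. Signal over background was not measured.

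None of the 60 probe sets passed the threshold, an adjusted p of 0.05 in limma over all 11485 probe sets, where 0% of all probe sets passed. An unadjusted p under 0.05 in limma was reached by 6 of the 60 (10%), and by 4.42% of all probe sets. The same test without moderation also called 0 of the 60. Its calls over all probe sets were not counted. The smallest adjusted p of any of the 60 was 0.675 in limma, for the DNA repair endonuclease gene apex1.L. In 7 of the 60 probe sets all 3 arrays of one group lay above all 3 of the other, against 9.63% of all probe sets, so the share of 11.7% is near that background. With groups apart, the sex-reversed group was the higher one in 4 of the 60 (6.67%, beside 5.37% of all probe sets). It was the lower one in 3 of the 60 (5%, beside 4.26% of all probe sets).

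The genes were split between both directions. Group means were higher in sex-reversed testis for 28 of the 60 probe sets and lower for 32, a share of 46.7% higher, beside 51.3% of all probe sets. The median log2 difference was -0.02, beside 0.0089 over all probe sets, and the median absolute difference was 0.24, beside 0.21. The sign of the small median depended on single arrays, since it turned to 0.04 or 0.05 when normal replicate 1 or 3 was left out and to 0.02 when sex-reversed replicate 1 was. Differences beyond 2-fold were outside the 95% interval for 34 of the 60, a share of 56.7% beside 62.5% of all probe sets. Each interval, here and below, is for a single probe set and makes no allowance for the number of probe sets tested. An interval that leaves out 0 therefore does not mean that the probe set passed. Group means were at least 2-fold apart in 4 of the 60, a share of 6.67% beside 2.56% of all probe sets.

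**Figure D1:**
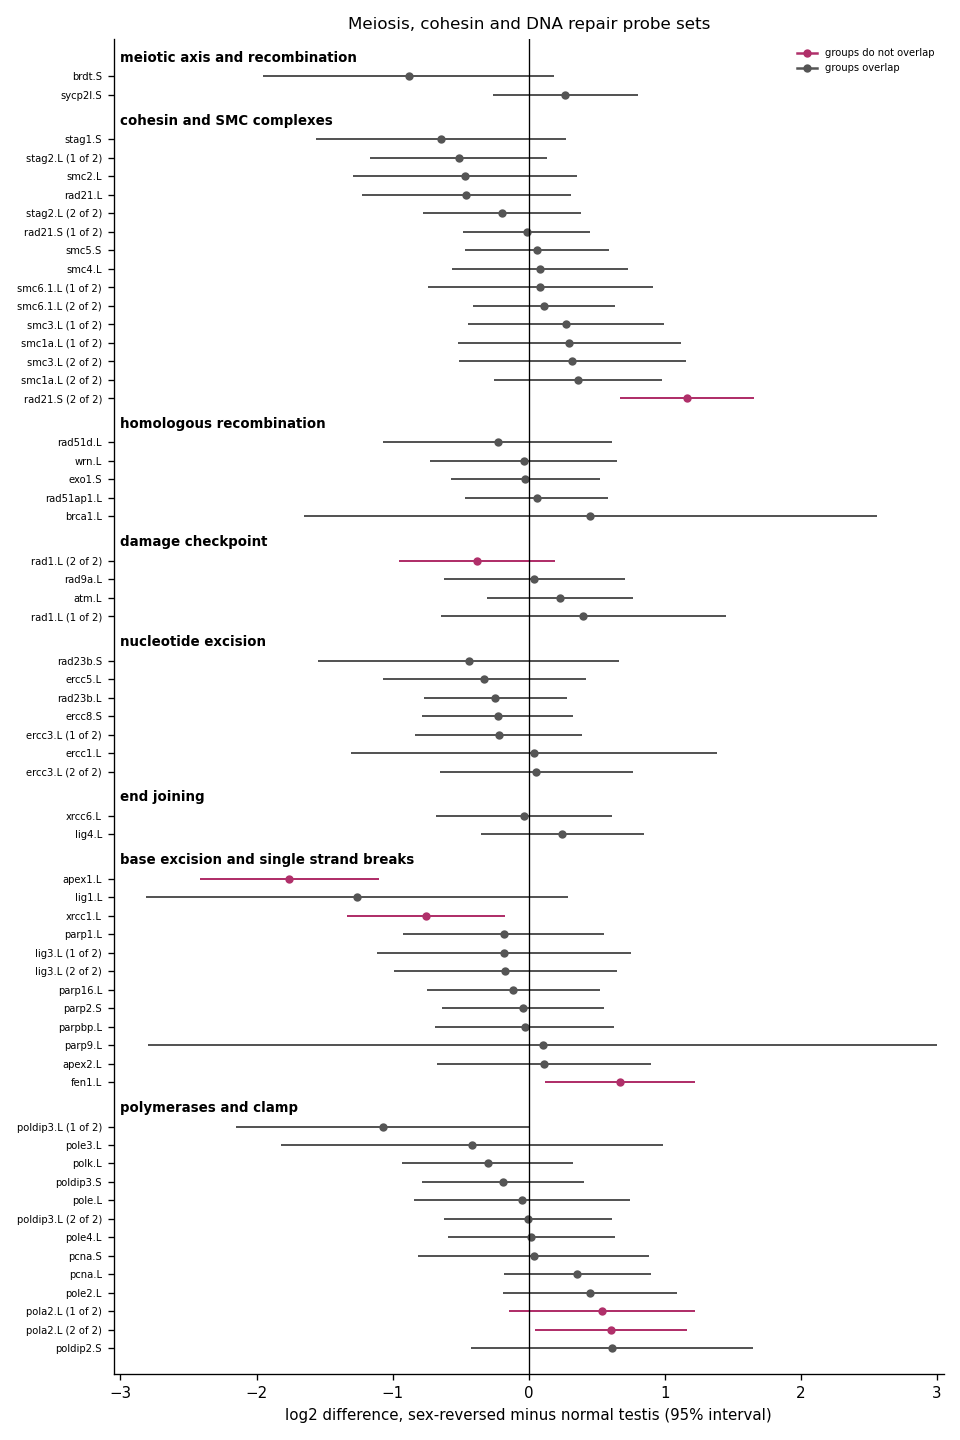
Log2 difference between sex-reversed and normal testis (dot) with its 95% interval from limma (line) for each of the 60 probe sets, grouped by role; a symbol with several probe sets is numbered by level. The dots lie on both sides of 0 in most roles, apex1.L (-1.76) and a probe set of rad21.S (1.16) lie farthest out, and 7 probe sets are drawn in red because their groups do not overlap.

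Of the genes particular to meiosis, brdt.S and, among the synaptonemal complex names, sycp2l.S were measured. The strand exchange gene dmc1, the break-making gene spo11 and the meiotic cohesin gene rec8 were not analysed here, nor were names beginning with hormad, msh, mlh or fanc. The 2 meiotic probe sets differed in opposite directions, and neither passed.

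The gene brdt.S codes for a bromodomain protein of the testis that, in mice, binds acetylated histones in spermatocytes and spermatids. Its log2 values were 4.87, 5.89 and 5.84 in sex-reversed testes and 6.51, 5.57 and 7.17 in normal testes. The groups overlap, since normal replicate 2 lay below 2 of the sex-reversed arrays. The difference of -0.88 had a 95% interval of -1.94 to 0.18 and an adjusted p of 0.997 in limma. For sycp2l.S, which codes for a relative of the synaptonemal complex protein SYCP2, values were 6.08, 6.18 and 5.73 in sex-reversed testes and 5.53, 5.89 and 5.78 in normal testes. These ranges overlap too, and the difference was 0.27 (95% interval -0.26 to 0.79).

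Cohesin is a ring of SMC1, SMC3 and RAD21 with a STAG subunit, and the related condensin (SMC2 and SMC4) and SMC5/6 complexes compact chromosomes and help repair. Of 15 probe sets for these complexes, 9 had a mean above that of normal testis and 6 one below it, and the median difference was 0.08. Adjusted p in limma was at least 0.720 for each of the 15.

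RAD21, the subunit that closes the ring and is cut to release it, was read by 3 probe sets that gave different pictures. The dimmer probe set of rad21.S read 4.08, 4.34 and 4.23 in sex-reversed testes and 3.08, 2.88 and 3.20 in normal testes. All sex-reversed arrays lay above all normal ones there, by 1.16 on the log2 scale (95% interval 0.68 to 1.65, adjusted p of 0.720 in limma, n = 3 per group), which is 2.24-fold. Its mean level lay below the 25th percentile of all probe sets. The brighter probe set of rad21.S read 7.71, 7.72 and 7.85 in sex-reversed testes and 7.91, 7.67 and 7.75 in normal testes. It was the steadiest of the 60 over the 6 arrays, with a range of 0.24, and its difference was -0.02 (95% interval -0.48 to 0.44). The L copy, rad21.L, read 6.86, 7.76 and 7.78 in sex-reversed testes and 7.75, 7.70 and 8.32 in normal testes, a difference of -0.46 with overlapping groups. The 2 probe sets of rad21.S thus had intervals that did not meet, and which of them reflects the RNA of the gene was not tested.

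The SMC subunits of cohesin had small differences in mean. Both probe sets of smc1a.L had higher means in sex-reversed testis, by 0.30 (95% interval -0.51 to 1.11) and 0.36 (95% interval -0.25 to 0.97). The same held for both probe sets of smc3.L, at 0.27 (95% interval -0.44 to 0.99) and 0.32 (95% interval -0.51 to 1.15). The STAG subunits had lower means. For stag1.S values were 5.24, 6.31 and 4.97 in sex-reversed testes and 6.57, 5.76 and 6.11 in normal testes, a difference of -0.64 with overlapping groups. The brighter probe set of stag2.L differed by -0.52 (95% interval -1.16 to 0.13) and the dimmer one by -0.20.

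Of the condensin core genes, smc2.L differed by -0.47 (95% interval -1.29 to 0.35) and smc4.L by 0.08 (95% interval -0.56 to 0.73). The low value of smc2.L came from sex-reversed replicate 3, at 6.88, while the other arrays read 7.64 and 8.24 in sex-reversed testes and 7.87 to 8.21 in normal testes. Genes of the SMC5/6 complex had means close to each other in the 2 kinds of testis. The difference was 0.06 for smc5.S (95% interval -0.46 to 0.58), and 0.08 and 0.11 for the 2 probe sets of smc6.1.L.

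Base excision repair and the mending of single strand breaks held the gene with the smallest p. Of 12 probe sets in this role 9 had a mean below that of normal testis and 3 one above it, and the median difference was -0.14. The role also takes in parp9.L, parp16.L and parpbp.L, which match by name. PARP9 acts in interferon responses, and PARP16 sits in the membrane of the endoplasmic reticulum.

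The endonuclease APEX1 cuts the DNA backbone where a damaged base has been removed. For apex1.L log2 values were 4.17, 4.07 and 4.09 in sex-reversed testes and 5.38, 6.35 and 5.90 in normal testes. The sex-reversed arrays lay close together, and each was over 1 unit below the lowest normal array. The mean was 4.11 ± 0.05 (SD, n = 3) in sex-reversed testis and 5.87 ± 0.49 in normal testis. The difference of -1.76 (95% interval -2.41 to -1.11) is 3.39-fold, and its adjusted p was 0.675 in limma over all probe sets. With 1 array left out it ran from -2.01 to -1.52. Its smallest adjusted p over the limma alternatives that kept this probe set was 0.237. The paralogue apex2.L differed by 0.11 (95% interval -0.67 to 0.89).

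XRCC1 is the scaffold that gathers ligase and polymerase at a nicked strand. For xrcc1.L values were 6.66, 6.43 and 6.05 in sex-reversed testes and 7.01, 7.38 and 7.00 in normal testes, so that all sex-reversed arrays lay below all normal ones. The difference was -0.76 (95% interval -1.33 to -0.18, adjusted p of 0.997 in limma). Its partner ligase gene lig3.L showed no such separation, with differences of -0.18 and -0.17 at its 2 probe sets and 95% intervals of -1.10 to 0.74 and -0.99 to 0.64.

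The flap endonuclease FEN1 and the ligase LIG1 finish the lagging strand in replication and act in long-patch repair. Values of fen1.L were 8.32, 8.20 and 7.85 in sex-reversed testes and 7.20, 7.57 and 7.58 in normal testes. All sex-reversed arrays lay above all normal ones, by 0.67 on average (95% interval 0.13 to 1.21, adjusted p of 0.997 in limma). Those of lig1.L were 5.20, 4.27 and 7.12 in sex-reversed testes and 7.11, 6.94 and 6.33 in normal testes. There 2 of the sex-reversed arrays lay below every normal one while the third was the highest of all, and the difference of -1.26 had a 95% interval of -2.81 to 0.28.

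The break sensors parp1.L and parp2.S differed by -0.18 (95% interval -0.91 to 0.55) and -0.04 (95% interval -0.63 to 0.54). For parp16.L the difference was -0.11 and for parpbp.L -0.03.

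**Figure D2:**
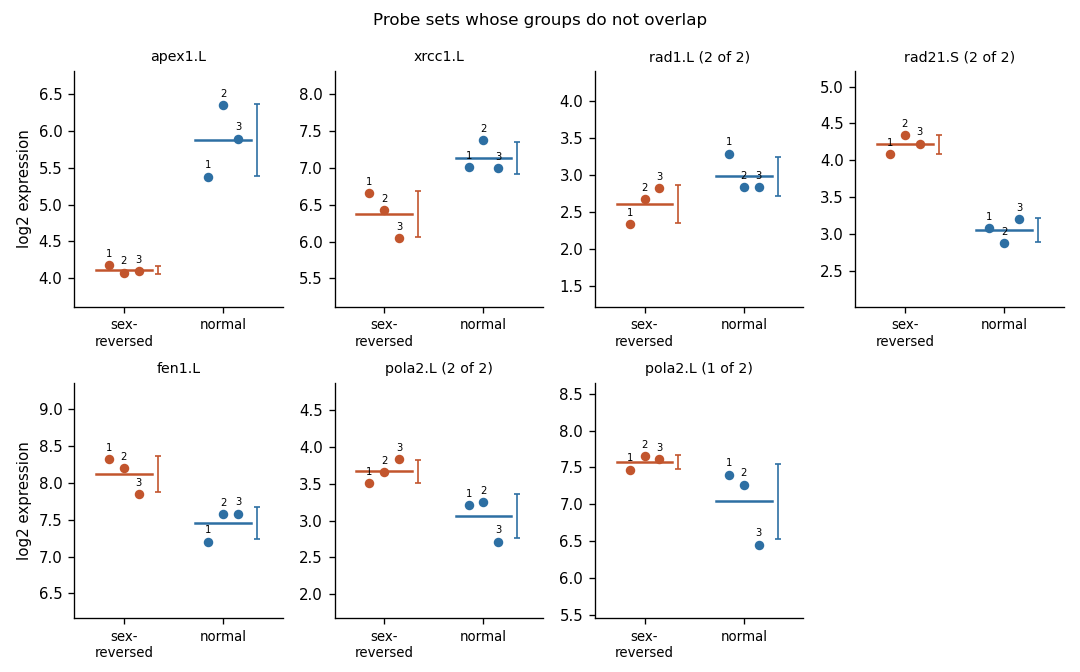
Log2 expression by array for the 7 probe sets whose groups do not overlap, sex-reversed testes left (orange) and normal testes right (blue); points carry the replicate number, lines are means, bars are SD (n = 3), and every panel spans 3.2 log2 units. The sex-reversed values of apex1.L, 4.07 to 4.17, lie far below the normal ones, and those of the dimmer rad21.S probe set, 4.08 to 4.34, above theirs.

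Polymerase subunits and the sliding clamp made up 13 probe sets. The sex-reversed mean was the higher one in 7 and the lower one in 6, and the median difference was 0.02. POLA2 is the regulatory subunit of the polymerase that lays down primers. Its gene pola2.L was read by 2 probe sets, both with every sex-reversed array above every normal one. The brighter read 7.47, 7.65 and 7.61 in sex-reversed testes and 7.40, 7.26 and 6.45 in normal testes, a difference of 0.54 (95% interval -0.14 to 1.21). The dimmer read 3.51, 3.66 and 3.83 in sex-reversed testes and 3.21, 3.25 and 2.72 in normal testes, a difference of 0.61 (95% interval 0.06 to 1.16). Both had an adjusted p of 0.997 in limma. They read the same gene, so the 7 probe sets with groups apart stand for 6 genes.

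PCNA is the ring that holds polymerases on DNA. For pcna.L values were 12.7, 12.5 and 12.5 in sex-reversed testes and 11.9, 12.5 and 12.2 in normal testes, a difference of 0.36 (95% interval -0.18 to 0.89) with overlapping groups. The S copy, pcna.S, differed by 0.04 (95% interval -0.80 to 0.88).

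Polymerase epsilon copies the leading strand, with POLE as its catalytic subunit and POLE2, POLE3 and POLE4 as partners. Differences were -0.05 for pole.L, 0.45 for pole2.L, -0.42 for pole3.L and 0.02 for pole4.L, and their 95% intervals all held 0. The bypass polymerase gene polk.L differed by -0.30 (95% interval -0.92 to 0.32).

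The names poldip2 and poldip3 belong to proteins that bind polymerase delta and are no polymerases. For poldip2.S values were 5.51, 5.63 and 5.49 in sex-reversed testes and 5.04, 3.94 and 5.82 in normal testes, so the difference of 0.61 came with overlapping groups. One probe set of poldip3.L read 4.08, 4.28 and 5.40 in sex-reversed testes and 5.89, 6.21 and 4.87 in normal testes, a difference of -1.07. Its second probe set differed by -0.01 and poldip3.S by -0.19.

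Homologous recombination was represented by 5 probe sets with a median difference of -0.03, 2 above and 3 below 0. Apart from brca1.L their groups lay close together. The nuclease gene exo1.S, which trims broken ends, differed by -0.03 (95% interval -0.57 to 0.51). The difference was 0.06 for rad51ap1.L (95% interval -0.46 to 0.58), -0.23 for rad51d.L (95% interval -1.06 to 0.61) and -0.04 for the helicase gene wrn.L (95% interval -0.72 to 0.64).

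BRCA1 helps load the recombination machinery on broken DNA. Values of brca1.L were 6.77, 8.97 and 8.65 in sex-reversed testes and 8.75, 5.70 and 8.58 in normal testes. One array of each group was low, sex-reversed replicate 1 and normal replicate 2, and the other 4 lay between 8.58 and 8.97. The highest and the lowest array were 9.64-fold apart, while the group means differed by 0.45 (95% interval -1.64 to 2.55).

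The damage checkpoint uses the kinase ATM and a clamp of RAD9, HUS1 and RAD1. The difference was 0.23 for atm.L (95% interval -0.30 to 0.76) and 0.04 for rad9a.L (95% interval -0.61 to 0.70). For rad1.L the brighter probe set read 7.94, 9.29 and 7.56 in sex-reversed testes and 7.63, 7.74 and 8.22 in normal testes. That difference of 0.40 rested on sex-reversed replicate 2 and was -0.11 without it. The dimmer probe set of rad1.L read 2.33, 2.67 and 2.82 in sex-reversed testes and 3.29, 2.83 and 2.84 in normal testes. Its groups did not overlap, but the gap between sex-reversed replicate 3 and the normal arrays was small and all values lay near the lowest of the arrays.

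Nucleotide excision was read by 7 probe sets, of which 5 had a lower sex-reversed mean. Their median difference was -0.23, and the groups overlapped in all 7. The differences were -0.22 and 0.05 for the 2 probe sets of the helicase gene ercc3.L, -0.33 for the nuclease gene ercc5.L and -0.23 for ercc8.S, which serves repair of transcribed genes. The copies rad23b.L and rad23b.S, which code for a partner of the damage sensor XPC, differed by -0.24 and -0.44. For the nuclease subunit gene ercc1.L values were 5.76, 6.94 and 6.59 in sex-reversed testes and 7.50, 6.45 and 5.23 in normal testes. Normal replicate 1 of ercc1.L lay above all the sex-reversed arrays, replicate 3 below them and replicate 2 among them. The difference of ercc1.L was 0.04 (95% interval -1.30 to 1.37).

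End joining was read by 2 probe sets. The ligase gene lig4.L differed by 0.25 (95% interval -0.35 to 0.84) and xrcc6.L, which codes for a subunit of the end-binding Ku protein, by -0.03 (95% interval -0.67 to 0.61).

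Several genes varied more between testes of a group than between the groups. The range over the 6 arrays had a median of 1.06 on the log2 scale, beside 0.92 for all probe sets, and exceeded 2 in 8 of the 60 (13.3%) beside 8.18% of all probe sets. The widest was parp9.L, which read 4.66, 7.25 and 3.66 in sex-reversed testes and 7.32, 2.83 and 5.11 in normal testes, a 22.4-fold span. Values of pole3.L were 6.29, 6.43 and 5.95 in sex-reversed testes and 7.94, 5.28 and 6.69 in normal testes. The high and the low array of pole3.L both belonged to the normal group, and those of parp9.L did too. Of the 8 wide probe sets only apex1.L had groups that did not overlap.

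**Figure D3:**
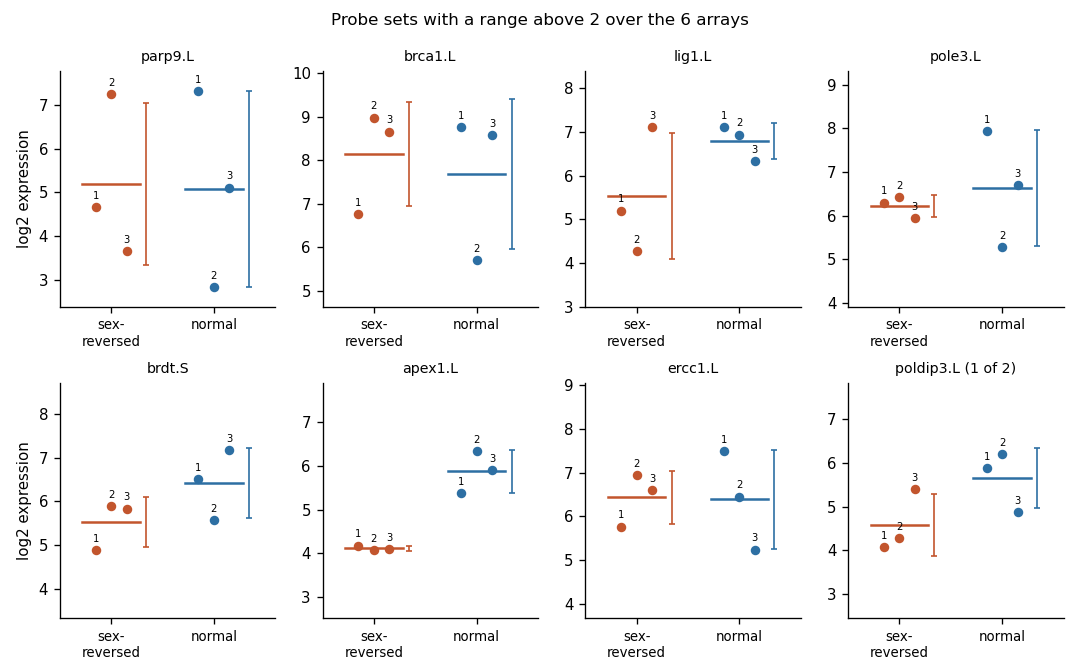
Log2 expression by array for the 8 probe sets with a range above 2, sex-reversed testes left (orange) and normal testes right (blue); points carry the replicate number, lines are means, bars are SD (n = 3), and every panel spans 5.4 log2 units. In parp9.L and brca1.L both groups hold high and low arrays, and in apex1.L the groups lie apart.

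The values of the 60 were also averaged by array. Centred values balance around 0 over the 6 arrays by construction, so they show only how the arrays differ. The mean of the 60 values, each centred on its probe set's mean over the 6 arrays, ran from -0.13 to 0.08 on the sex-reversed arrays and from -0.02 to 0.11 on the normal arrays. Over all probe sets that mean stayed between -0.0042 and 0.0075, a narrower span that the normalization of the arrays keeps near 0. Roles with few probe sets moved with single arrays. Homologous recombination lay at -0.61 on normal replicate 2, where brca1.L was low, and nucleotide excision at 0.43 on normal replicate 1.

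**Figure D4:**
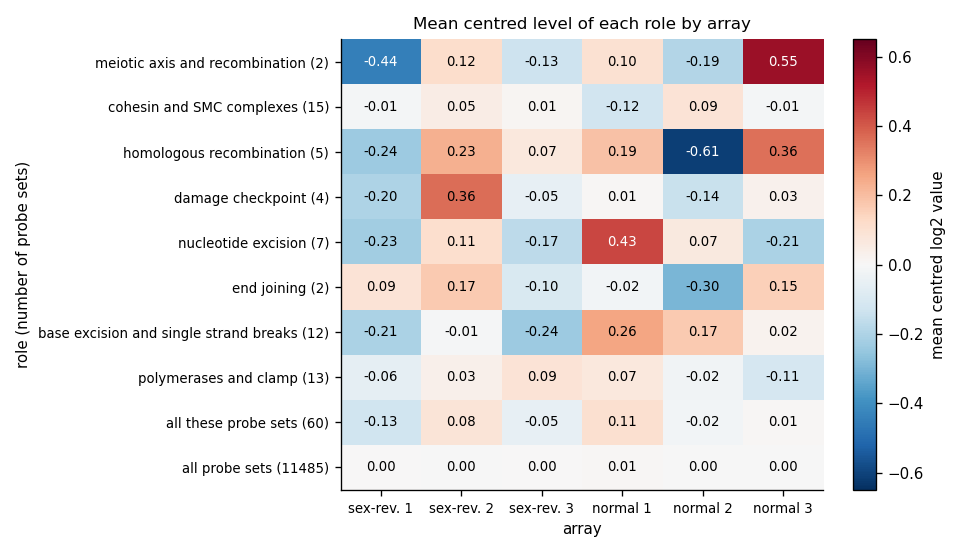
Mean centred log2 value per role (rows, with the number of probe sets) and array (columns, sex-reversed left). The strongest colours belong to roles with few probe sets, such as homologous recombination on normal replicate 2 (-0.61), while the row of all 60 stays between -0.13 and 0.11.

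Some genes were read more than once, by several probe sets or by both copies. Of 12 such genes, 9 had differences of 1 sign, and in 9 the lowest and highest difference lay less than 0.5 apart. How often unrelated probe sets would do the same was not measured. Since the median absolute difference of the 60 was only 0.24, these counts do not check the single readings. The exceptions in size were rad21 (-0.46 to 1.16), poldip3 (-1.07 to -0.0073) and rad1 (-0.38 to 0.40). Of the genes with groups apart, apex1.L, xrcc1.L and fen1.L were read by 1 probe set each, so none of them had a second reading.

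**Figure D5:**
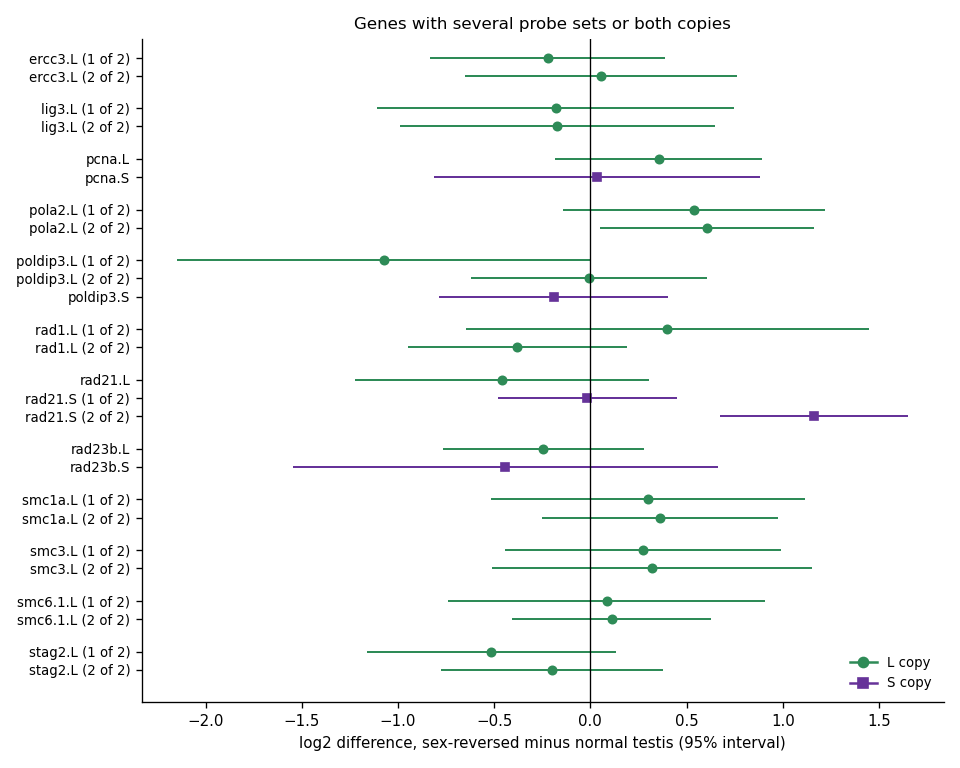
Log2 difference between sex-reversed and normal testis with its 95% interval for the 26 probe sets of the 12 genes read more than once, L copies as green circles and S copies as purple squares. Probe sets of pola2.L, smc1a.L and smc3.L sit close together, whereas those of rad21 run from -0.46 to 1.16.

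Other genes of DNA repair and meiosis were followed in a list chosen by function, with earlier results of these data known. Of 112 listed genes 44 were measured, by 53 probe sets, and 0 passed in limma. An unadjusted p under 0.05 in limma was reached by 2 of the 53 (3.77%), beside 4.42% of all probe sets. Groups did not overlap in 5 of the 53 (9.43%), beside 9.63% of all probe sets. The sex-reversed mean was above the normal one in 27 and below it in 26, and the median difference was 0.09. The checkpoint kinase gene chek2.L read 5.70, 5.34 and 5.15 in sex-reversed testes and 6.13, 6.43 and 6.31 in normal testes, so its groups did not overlap; the difference was -0.90 (95% interval -1.43 to -0.36, adjusted p of 0.997 in limma). The base excision glycosylase gene tdg.S differed by 1.08 (95% interval 0.19 to 1.97) and the break sensor gene nbn.L by -1.39. The value of nbn.L rested on sex-reversed replicate 3, which read 5.45, beside 8.61 and 8.75 on the other sex-reversed arrays and 8.44 to 9.35 on the normal ones.

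Cell makeup was described by marker lists. Of 61 probe sets for replication and mitosis genes, 35 had a sex-reversed mean above the normal one (median difference 0.05), and their mean level was 6.29 to 6.46 in sex-reversed testes and 6.33 to 6.36 in normal testes. The cyclin gene ccnb1.S (-2.20), the spindle checkpoint gene bub1b.L (1.44) and ccnb2.S (-1.15) had the largest differences there, with overlapping groups. The 15 germ cell probe sets, among them sp5.S, whose symbol names a transcription factor, had a mean level of 6.48 to 6.65 in sex-reversed testes and 6.37 to 6.68 in normal testes. Their groups did not overlap in 4 of the 15 (26.7%), beside 9.63% of all probe sets. The sex-reversed group was higher in 2 of these, spag6.L and the brighter probe set of septin12.S. It was lower in the other 2, tekt1.L and dazap1.S. Groups did not overlap in 2 of the 61 replication and mitosis probe sets (3.28%), 2 of 8 Sertoli cell ones (25%) and 2 of 5 oocyte ones (40%). They overlapped in all smooth muscle, blood and steroid making cell probe sets. Mean levels were not tested between groups for any list. Smooth muscle markers (8 of 9 higher) lay at 8.45 to 8.85 in sex-reversed testes and 7.97 to 8.28 in normal testes. Sertoli cell markers (3 of 8 higher) lay at 4.31 to 4.54 in sex-reversed testes and 4.55 to 4.79 in normal testes. Oocyte markers (3 of 5 higher) lay at 5.88 to 5.96 in sex-reversed testes and 5.13 to 5.68 in normal testes, with a median difference of 0.08. The dimmer probe set of mos.L differed by 1.15 and its brighter one by 0.08, with overlapping groups in the brighter one, and zp4.S differed by 1.07. No probe set of these lists passed in limma. Of 6 blood probe sets all had lower means in sex-reversed testis, at a level of 4.27 to 5.20 in sex-reversed testes and 4.49 to 5.48 in normal testes. Steroid making cells were read by 2 of 7 listed genes, cyp17a1.L and srd5a1.S, at 6.12 to 9.15 in sex-reversed testes and 8.71 to 9.06 in normal testes. Sex-reversed replicate 3 stood apart in cyp17a1.L and not in srd5a1.S. The brighter probe set of the steroid hydroxylase gene cyp17a1.L read 11.1, 10.5 and 5.17 in sex-reversed testes and 9.96, 11.3 and 10.8 in normal testes. The dimmer one read 8.58, 8.93 and 5.23 in sex-reversed testes and 8.14 to 8.26 in normal testes. Values of srd5a1.S were 7.68, 8.04 and 7.95 in sex-reversed testes and 8.03, 7.58 and 7.22 in normal testes. The part of any of these cells in the values of apex1.L, xrcc1.L, fen1.L, pola2.L or rad21.S was not tested.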

How the data were processed

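The deposited table holds log2 values per probe set to which the authors applied RMA, per the submitters' processing notes; its version, the chip definition and how rows were chosen are not stated there. RMA brings the probe values of all arrays to 1 distribution before probe sets are summarised, so a shift common to most genes is lost. Medians of the probe set values in the table still ran from 5.25 to 5.31. The chip is named for X. laevis, so alleles from the X. muelleri father may be read less well. There were 0 columns of other samples, and no 2 arrays held identical values. Gene symbols came from the platform table: 6798 of 11485 probe sets had 1 symbol, 110 several and 4577 none.

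Tests on every probe set used limma 3.58.1 in R 4.3.3 (lmFit and eBayes, 3 sex-reversed against 3 normal arrays, two-sided), adjusted by Benjamini-Hochberg over all probe sets at 0.05, after a check on simulated data. Lists are described by counts, medians and mean levels per array, with no test. Precision is limited by the number of arrays: 95% intervals reached 0.64 to either side of the difference in the median probe set. Labels and table give no hybridisation batch. Deviations of samples with the same replicate number correlated at -0.0068, -0.025 and 0.139, and those with other numbers at -0.16 to 0.152. Sex-reversed replicate 3 correlated best with its own number, and replicates 1 and 2 did not. The number was not used as a pair.

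The genes and lists were chosen with earlier results of these data known. Named were genes whose groups do not overlap, those with the smallest p and all meiotic and cohesin genes. Genes read more than once and the widest ranges were named too. For some lists up to 3 genes were named by size of difference, and for smooth muscle, Sertoli cells and blood none. A few were chosen after their values were seen (ddx4.L, dazl.L, the sperm tail genes, cyp17a1.L, chek2.L and other single genes). Alternatives were other normalizations, filters, variance models, a replicate block and each array left out. No sequences were used here.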

Additional observations from a re-analysis of the deposited data

How the results depend on the processing

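In every alternative 0 of the 60 probe sets passed in limma, the unmoderated test and a threshold of 0.1 included. For the unmoderated test and the threshold of 0.1, calls over all probe sets were not counted. The smallest adjusted p over all probe sets was 0.051 in limma, so the threshold of 0.1 was passed outside the 60. Over all probe sets, calls numbered 2 with median centring and 2 with array weights. They numbered 1 each with a further quantile normalization, above the median level and without cross-hybridising probe sets. With 1 array left out, calls numbered 6 without sex-reversed replicate 3 and 0 without any other array. The replicate block gave 0 calls among the 60 and 0 over all. Only sex-reversed replicate 3 correlated best with its own number, while replicates 1 and 2 did not. The 7 probe sets with groups apart became 4 above the 25th percentile of level and 3 above the median, since dim ones leave the count. Above the median, apex1.L (mean level 4.99) left the count as well. The share of all probe sets with groups apart was not counted under these filters, so the filtered counts have no background beside them. With 1 array left out they numbered 8 to 14 (13 without normal replicate 2 or 3, 14 without sex-reversed replicate 2 or 3), beside 17.6% to 20.8% of all probe sets, as fewer arrays need to separate. The median difference then ran from -0.112 to 0.0457. Of 517 differences of the 60 with all arrays kept, 516 kept their sign. The brighter probe set of rad21.S was 0.000612 with a further quantile normalization. The replicate block, the variance model and the filters leave each difference as it was. Only the normalizations and the array weights could change a sign, so the count of 516 was largely fixed beforehand and is no measure of stability.

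With 1 array left out, the sign held for 29 of the 60 differences and changed for 31. Their lowest and highest values were rad21.S (brighter) -0.0704 to 0.0494, smc3.L (brighter) -0.0304 to 0.525, smc4.L -0.144 to 0.291, smc5.S -0.065 to 0.196, smc6.1.L (brighter) -0.152 to 0.416, smc6.1.L (dimmer) -0.0327 to 0.197, stag2.L (dimmer) -0.355 to 0.000234 and brca1.L -0.535 to 1.135. Next came exo1.S -0.182 to 0.0765, rad51ap1.L -0.0822 to 0.187, rad51d.L -0.483 to 0.114, wrn.L -0.236 to 0.157, rad1.L (brighter) -0.113 to 0.751, rad9a.L -0.192 to 0.295, ercc1.L -0.541 to 0.590 and ercc3.L (brighter) -0.383 to 0.0121. Further ranges were ercc3.L (dimmer) -0.236 to 0.254, xrcc6.L -0.293 to 0.125, apex2.L -0.112 to 0.400, lig3.L (brighter) -0.426 to 0.194, lig3.L (dimmer) -0.455 to 0.066, parp1.L -0.381 to 0.152, parp16.L -0.365 to 0.0643 and parp2.S -0.215 to 0.0542. The last were parp9.L -1.024 to 1.220, parpbp.L -0.208 to 0.175, pcna.S -0.310 to 0.297, poldip3.L (dimmer) -0.172 to 0.189, pole.L -0.392 to 0.143, pole3.L -1.093 to 0.234 and pole4.L -0.172 to 0.177.
Quantile normalization hides any shift shared by most genes, and dim probe sets (4 of the 60 below the 25th percentile of level) have uncertain folds.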

Other observations

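One probe set carried the symbols of both copies of rad23b and so was not among the 60. It read 10.8, 10.9 and 11.1 in sex-reversed testes and 11.0, 10.9 and 10.9 in normal testes, a difference of 0.0056 (95% interval -0.45 to 0.46).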
